A study of Mus musculus with 6 samples.

Results

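The genes described here are the Rab small GTPases, the largest family of small GTP-binding proteins in membrane traffic. They were taken from the deposited gene table as every row whose symbol is Rab, a number, and at most a letter and a digit, which gave 57 of 22381 rows. Of the other rows whose symbols start with Rab, 23 encode regulators, relatives or pseudogenes and are not members. RNA was sequenced from LSK cells, bone marrow cells that lack mature lineage markers and display both Sca-1 and c-Kit, among which are the blood-forming stem cells and early progenitors. By the labels there were 3 samples of genotype Tgif1-/- and 3 wild-type samples, all from C57BL/6 mice aged 8 to 12 weeks. Tgif1 encodes a homeodomain repressor, and the title of the series is about its part in stem cell quiescence and self-renewal. Which part of the gene these mice lack, and whether a promoter or Cre is involved, is not stated in the labels.

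The table gives the authors' FPKM for each group, a level scaled to transcript length and library size, with no value per sample. It adds a Cuffdiff p-value and a q-value, the p adjusted over all 10730 tested rows. The spread between samples and the sequencing depth are therefore unknown here. The labels do not state whether replicates are separate animals, so the p-values may cover technical spread alone. In each pair of FPKM values below, Tgif1-/- comes before wild type, and log2 ratios divide in that order. Each standard error is the one implied by the deposited test statistic, an error of the authors' model, and intervals are 95% intervals from it. Tgif1 itself was at 88.6 and 71.5 FPKM, a log2 ratio of 0.31 whose test failed, so its value neither bears out nor refutes the labels. Directions below are between groups as labelled. Of the markers that define the fraction, Kit was at 193 and 202 FPKM with a failed test. Ly6a (Sca-1) was at 120 and 88.9 FPKM with a Cuffdiff q of 0.949. Cd34, which is not part of that definition, was at 314 and 316 FPKM with a failed test.

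Rab proteins are switches that mark membranes. Loaded with GTP by exchange factors (GEFs), a Rab recruits effectors that move, tether or fuse vesicles, and activating proteins (GAPs) return it to the GDP form. A lipid tail, added by the Rab geranylgeranyl transferase with the escort proteins Chm and Chml, holds it on the membrane, and GDP dissociation inhibitors carry it back through the cytosol. Blood cells use the general members for growth and receptor recycling, and some lineages also use particular members for granules: Rab27a and Rab27b in cytotoxic cells, platelets and mast cells.

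Rab genes differed little between the groups. Of 46 tested members, 1 was called at a q at or under 0.05, Rab27b, which was higher in the group labelled Tgif1-/-. Over all tested rows 0.662% were called in either direction and 0.289% were called higher, so a single call among 46 genes says little about the family. Another member, Rab3a, had a larger difference and a q just above that threshold. At an unadjusted p under 0.05 there were 2 members, both higher, where 5.41% of all tested rows passed, 1.85% of them higher and 3.55% lower. The tests of 8 members failed and 3 had too few reads, so these 11 could not be called.

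**Figure D1:**
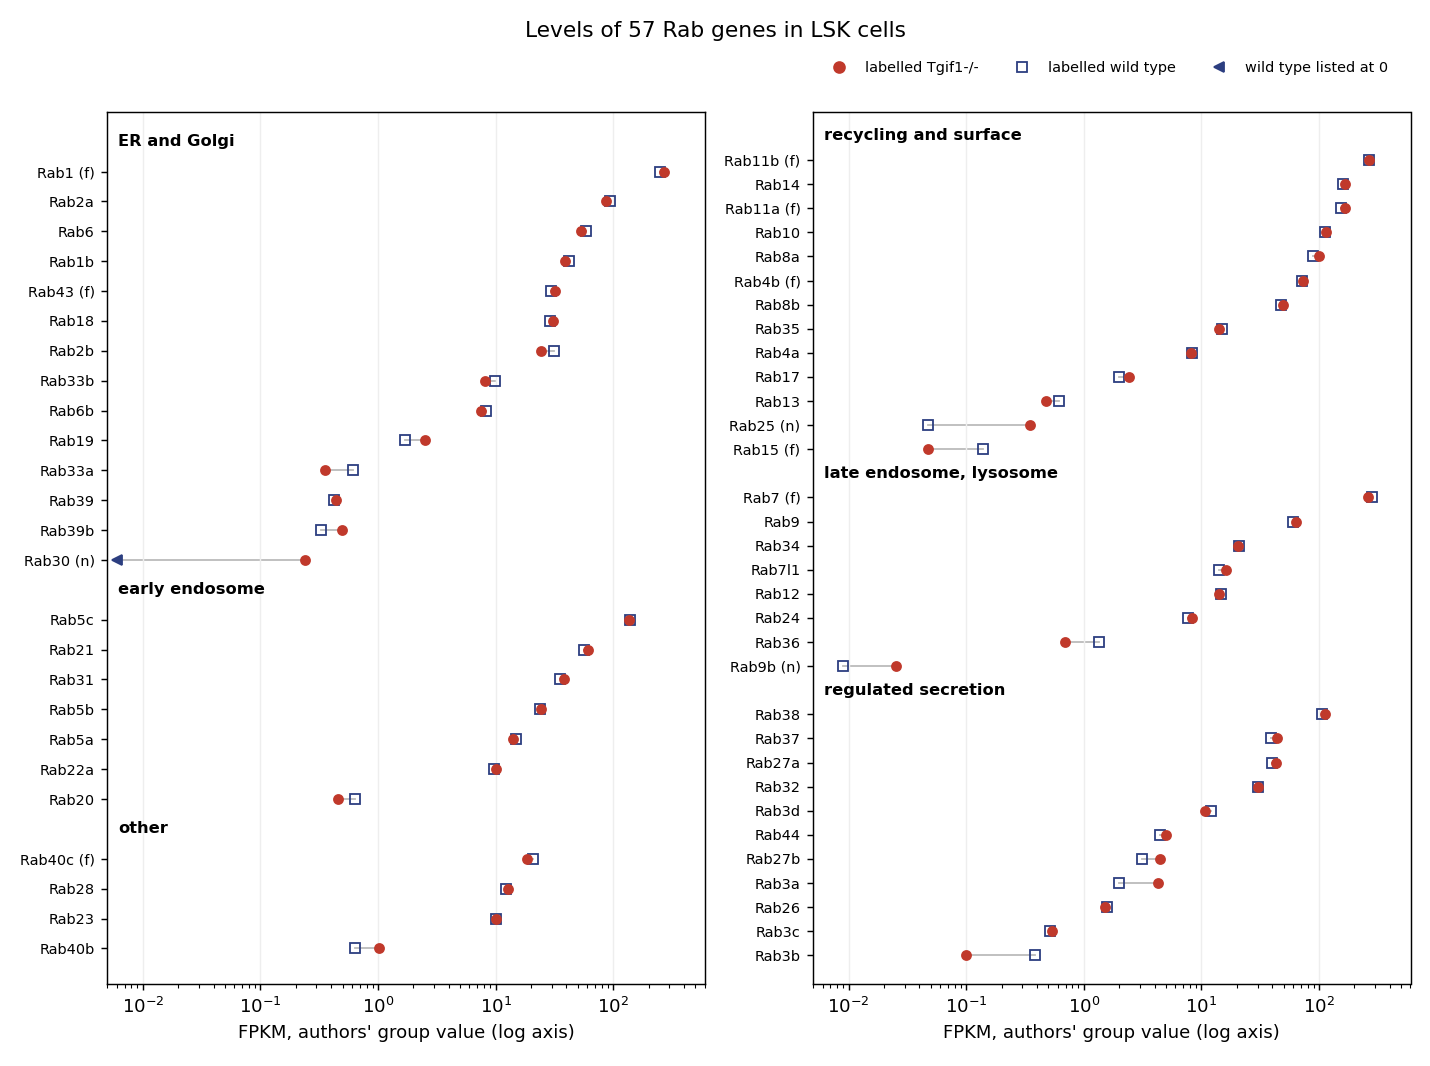
Level of each of the 57 Rab genes in FPKM on a log axis, grouped by the role given in the text, with filled circles for the group labelled Tgif1-/- and open squares for wild type. An (f) marks a failed test and an (n) too few reads to test; the circle and square nearly coincide for members above 10 FPKM, and Rab30 is listed at 0 in wild type.

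The family's levels spanned a wide range. In both groups 33 members had at least 10 FPKM and 8 had at least 100 FPKM, while 11 were under 1 FPKM in both. The 10 members with the highest mean held 67.7% of the summed Rab FPKM in the group labelled Tgif1-/- and 67.6% in wild type. That sum was 2489 and 2451 FPKM. Of the tested members, 27 were higher and 19 lower, with a median log2 ratio of 0.04, beside 42.6% higher and a median of -0.03 over all tested rows. A ratio within 1.3-fold was found for 36 of 46 tested members (78.3%), against 82.8% of all tested rows with a ratio. With at least 5 FPKM in a group it was found for 30 of 31 tested members (96.8%), against 93.7% of such rows.

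The exception among those 31 was Rab2b, at 24.1 and 31.6 FPKM, a log2 ratio of -0.39 and a fold with an interval from 0.502 to 1.16. For the 26 tested members with a mean of at least 10 FPKM the log2 ratio lay between -0.39 and 0.21. All 26 intervals lay inside a 2-fold change in either direction. Among 8 tested members with a mean under 1 FPKM, 1 interval did, so most low members could have differed by 2-fold without being resolved.

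**Figure D2:**
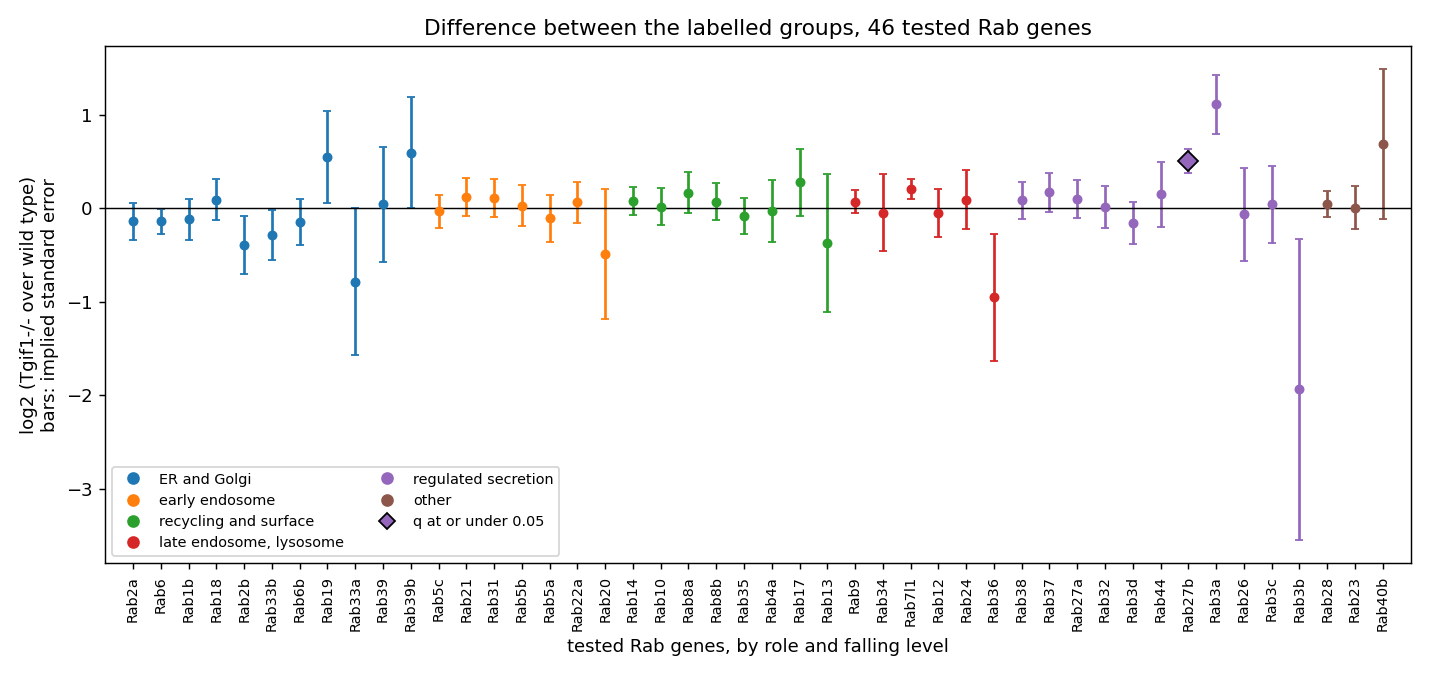
Log2 ratio of the group labelled Tgif1-/- over wild type for the 46 tested Rab genes, ordered by role and then by falling level, with bars of 1 implied standard error. Rab27b, the diamond, is the member with a q at or under 0.05; Rab3a lies higher with a longer bar, and the longest bars belong to the least abundant members.

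Rabs of regulated secretion and lysosome-related organelles held both members with a small p. This group drives release of stored granules, and all 11 of its members were tested, 8 of them higher and 3 lower. Its median log2 ratio was 0.09, and its summed level was 256 and 239 FPKM. For comparison, 42.6% of all tested rows were higher, 0.289% were called higher and 1.85% were higher at an unadjusted Cuffdiff p under 0.05. The role lists were made with earlier results of these data known, and whether small p-values gather in this role was not tested.

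Rab27b, a granule-docking GTPase of platelets and mast cells (ENSMUSG00000024511, chromosome 18, positions 70138785 to 70301259 as listed, with no mouse build named), was at 4.42 and 3.10 FPKM. The wild-type group was the lower, but without values per sample it cannot be said whether the samples overlapped. The log2 ratio of 0.51 had an implied standard error of 0.13, and the fold was 1.43 with an interval from 1.20 to 1.70. In the authors' deposited table its Cuffdiff p was 6.58e-05 and its q 0.0141, rank 49 of all tested rows by p. That standard error was the 12th lowest of 535 genes at like expression, whose median error was 0.33. With each error set to at least that median, the adjusted p was 1.00 and the call was lost. Under that floor 0 Rab genes and 0.197% of all tested rows were called, with 1 member, Rab3a, at an unadjusted p under 0.05. A low error was common among called genes and not particular to Rab27b. Of 70 called genes with a finite error, 53 had one under the median at their level. So did all 29 called genes with a change under 1.5-fold. A call needs a change that is large beside its error, so a small change is called only where the error is low. These counts therefore follow in large part from how calls are made and are no separate evidence on Rab27b.

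Rab3a, known from synaptic vesicle release (ENSMUSG00000031840, chromosome 8, positions 73278578 to 73284820), was at 4.29 and 1.98 FPKM. This was a fold of 2.16 with an interval from 1.41 to 3.31, and its log2 ratio of 1.11 had an implied standard error of 0.31. The authors' deposited table gives a Cuffdiff p of 0.000389 and a q of 0.0547, so it missed the threshold. Only 2 uncalled genes had a smaller q. Its error was not unusual, with a median of 0.37 at like expression, and the adjusted p was 0.546 with errors held at that median or above. Mpv17l2, listed at the same position, was at 22.2 and 21.6 FPKM, a log2 ratio of 0.03, and reads that fell between these neighbours could have been split either way.

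**Figure D3:**
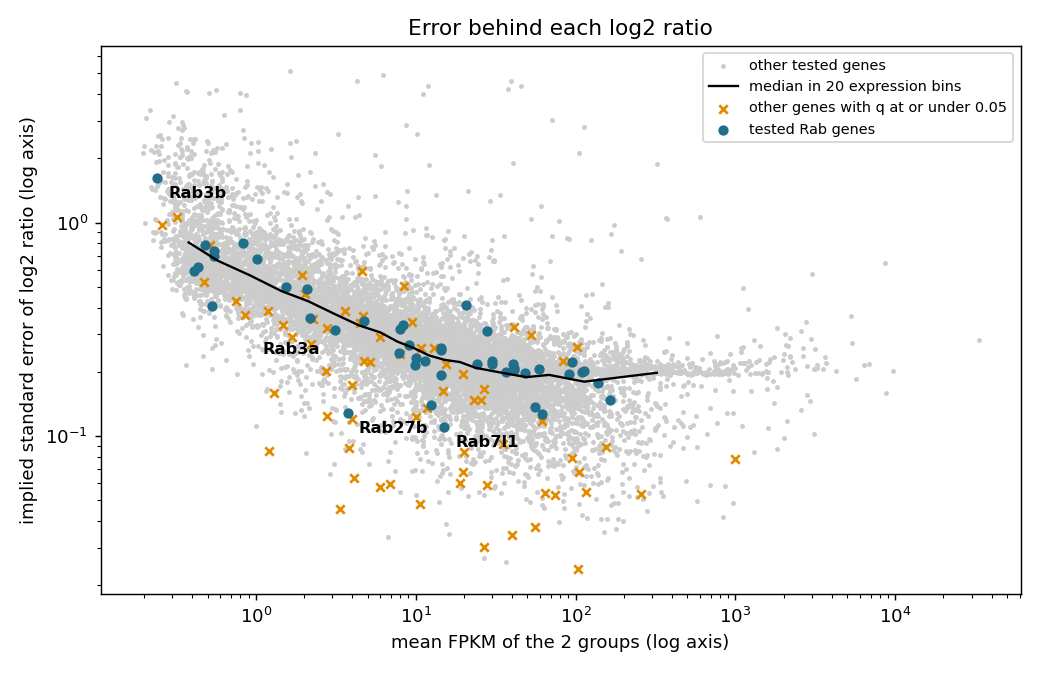
Implied standard error of the log2 ratio against the mean FPKM of the groups for tested genes, both on log axes, with a line through the medians of 20 expression bins. Crosses are other genes with a q at or under 0.05; Rab27b at 0.13 lies well under the line at its level, 0.33, while Rab3a at 0.31 lies near it.

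The closest relatives of these genes stood at other levels. Rab27a, which serves lytic granules and melanosomes, was at 42.8 and 39.8 FPKM, a log2 ratio of 0.10 with an interval from -0.30 to 0.50. It made up 90.6% and 92.8% of the summed Rab27 level. The log2 ratio of Rab27b was 0.41 above that of Rab27a, with an interval from -0.06 to 0.88 if their errors are independent, so it was not shown that these paralogs differed in their change. Rab3d, the Rab3 of secretory granules outside neurons, was at 10.8 and 12.0 FPKM, a log2 ratio of -0.16 with an interval from -0.60 to 0.28. The log2 ratio of Rab3a was 1.27 above that of Rab3d, with an interval from 0.51 to 2.03, in a pair chosen after its values were seen. Rab3d was 68.6% of the summed Rab3 level in the group labelled Tgif1-/- and 80.6% in wild type, and the share of Rab3a was 27.3% and 13.3%. Rab3c was at 0.536 and 0.520 FPKM. Rab3b, at 0.1003 and 0.383 FPKM, had the lowest log2 ratio of any tested member, -1.93, with an interval from -5.09 to 1.22 that leaves its direction unknown.

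Members linked to granules and pigment organelles ran from high to low levels in LSK cells. Rab38, a melanosome GTPase also used in platelet dense granules, was the highest of the secretory group at 113 and 106 FPKM. The log2 ratio of Rab38 was 0.09, with an interval from -0.31 to 0.48. Rab32, its partner on lysosome-related organelles, was at 30.3 and 30.1 FPKM, with an interval from -0.43 to 0.45. Rab37, described in mast cell granules, was at 44.0 and 39.0 FPKM, with an interval from -0.23 to 0.58. Rab44, an atypical long Rab of mast cells, was at 4.96 and 4.47 FPKM, with an interval from -0.53 to 0.83. Of the 7 lineage-linked members (Rab3d, Rab27a, Rab27b, Rab32, Rab37, Rab38 and Rab44), 6 were higher, 1 was called, and the median log2 ratio was 0.10, beside 42.6% higher, 0.289% called higher and a median of -0.03 over all tested rows. This list was chosen with results of these data known. Rab26, of secretory granule maturation, was at 1.51 and 1.57 FPKM.

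Marker lists of other blood lineages lay on both sides of 0. For comparison, 42.6% of all tested rows were higher and 0.662% were called in either direction. At an unadjusted Cuffdiff p under 0.05, 1.85% of all tested rows were higher and 3.55% lower, so small counts in a short list say little. Each of 11 tested mast cell or basophil markers was higher and 4 were called, with summed levels over the 14 listed of 402 and 167 FPKM. Those called were Prss34 at 151 and 51.8 FPKM, Cpa3 at 115 and 52.4 FPKM, and 2 more. These were Mcpt8 at 77.2 and 28.0 FPKM and Ms4a2 at 15.4 and 6.12 FPKM. Of the 3 with too few reads to test, the mast cell tryptase Tpsab1 was listed at 0 in both groups. Mcpt4, a connective tissue mast cell protease and another of these 3, was at 0.0811 and 0.207 FPKM. Of the megakaryocyte markers other than Rab27b, 10 of 12 tested were higher, with 0 Cuffdiff calls. Before adjustment, 2 of these markers were higher and 1 lower at p under 0.05, and the summed levels over the 17 listed were 464 and 408 FPKM, with none at 0. Platelet factor Pf4 was at 108 and 59.7 FPKM, and the integrin Itga2b was at 54.0 and 35.2 FPKM. Of the markers of erythroid cells, which share a progenitor with megakaryocytes, 10 of 14 were higher. There were 0 Cuffdiff calls among them, and 1 was higher at p under 0.05 before adjustment. B cell markers went the other way, with 8 of 9 tested lower and 5 called. Neutrophil markers were lower in 8 of 9 tested cases, with 0 Cuffdiff calls and 4 lower at p under 0.05 before adjustment. T and NK cell markers, a list with cytotoxic genes, were higher in 5 and lower in 3 of 8 tested cases, with 0 Cuffdiff calls and 1 lower at p under 0.05 before adjustment. The part of these cell types in the Rab27b and Rab3a values was not tested, and in bulk RNA a change in the share of cells and a change per cell cannot be told apart.

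**Figure D4:**
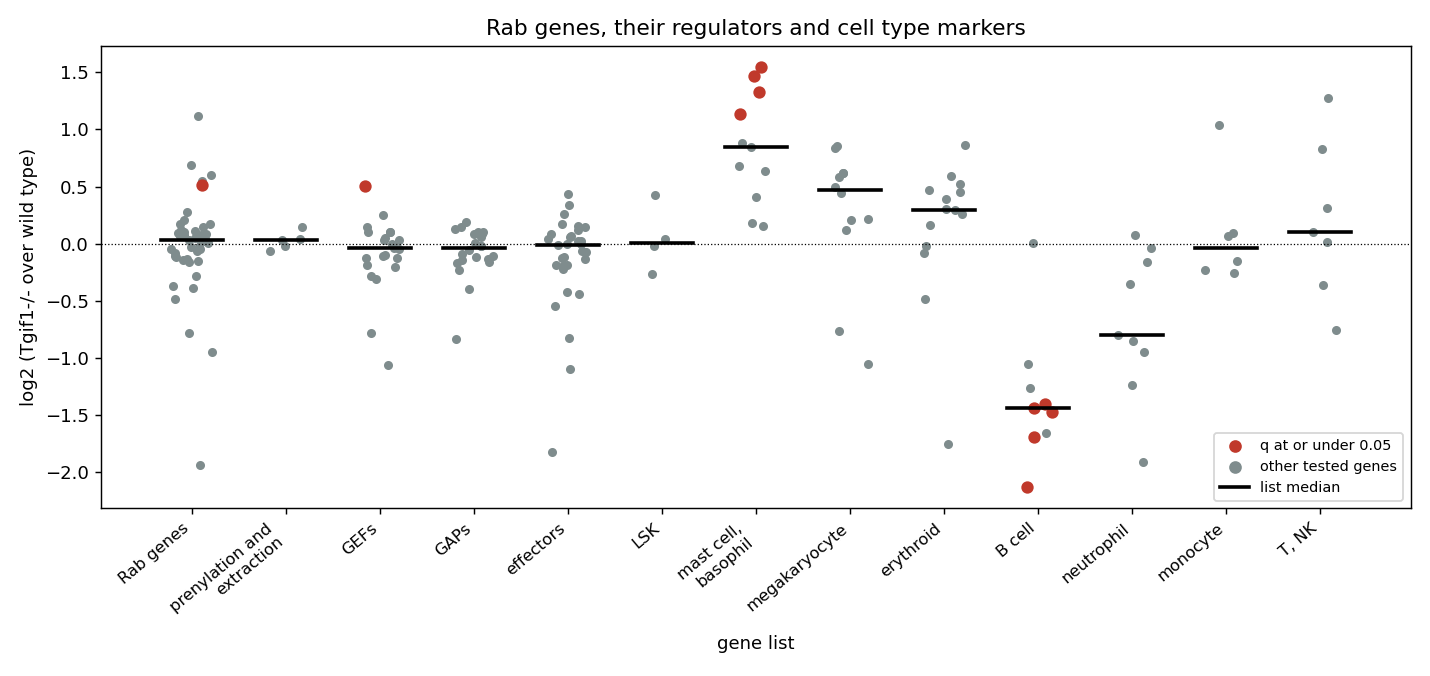
Log2 ratio of each tested gene in the Rab family, in 4 lists of Rab regulators and effectors, and in 8 lists of cell type markers, with a bar at each list median and red points for a q at or under 0.05. The Rab, regulator and effector medians lie between -0.04 and 0.04, beside 0.84 for mast cell and basophil markers and 0.47 for megakaryocyte markers.

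By Cuffdiff none of 11 tested Rabs of the endoplasmic reticulum and Golgi was called or reached p under 0.05 before adjustment. Over all tested rows those shares were 0.662% and 5.41%, so none of 11 says little. Direction within a role was not tested. In this role 4 were higher and 7 lower, with a median log2 ratio of -0.14. Summed over all 14 members the level was 557 and 559 FPKM. Rab1 (now Rab1a), which brings vesicles from the endoplasmic reticulum to the Golgi, was the third most abundant member at 272 and 252 FPKM. Its test failed. Rab1b, with the same task, was at 38.8 and 42.1 FPKM. Rab2a, which acts in the return path and in Golgi structure, was at 86.2 and 94.7 FPKM, and Rab2b is described above. The Golgi retrograde regulator Rab6 (now Rab6a) was at 53.4 and 58.7 FPKM, and its relative Rab6b was at 7.45 and 8.26 FPKM. Rab1b, Rab2a, Rab2b, Rab6 and Rab6b thus each had the lower value in the group labelled Tgif1-/-, by less than their intervals resolve.

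Other Golgi and reticulum members had scattered values. Rab18, found on lipid droplets and the reticulum, was at 31.0 and 29.1 FPKM. Rab43 was at 32.2 and 29.3 FPKM with a failed test. Rab33b, which binds the autophagy protein Atg16l1, was at 8.19 and 9.98 FPKM, far above Rab33a at 0.354 and 0.608 FPKM. Rab19 was at 2.49 and 1.70 FPKM, with an interval from -0.41 to 1.51 for its log2 ratio. Rab39 and Rab39b were low, at 0.439 and 0.426 FPKM and at 0.495 and 0.327 FPKM. Rab30, a Golgi Rab, was at 0.238 FPKM and listed at 0 in wild type. The table marks it as having too few reads to test, although it prints a p of 0.00588.

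Early endosome Rabs, which receive cargo taken up at the surface, differed little, with 4 higher, 3 lower and none called of 7 tested by Cuffdiff, and none at an unadjusted p under 0.05. Their summed level was 285 and 280 FPKM. With 0.662% of all tested rows called and 5.41% at an unadjusted Cuffdiff p under 0.05, none of 7 says little. Of the Rab5 paralogs that drive early endosome fusion, Rab5c made up 78.0% and 78.1% at 136 and 139 FPKM. Rab5b was at 24.4 and 24.0 FPKM and Rab5a at 13.9 and 15.0 FPKM. Rab21, which takes up integrins, was at 61.6 and 56.7 FPKM. Rab31 was at 38.0 and 35.2 FPKM. Rab22a was at 10.1 and 9.63 FPKM, and Rab20, of phagosomes, at 0.454 and 0.636 FPKM. The Rab5 mixture was thus nearly the same in both groups.

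Recycling and surface-directed Rabs return receptors to the plasma membrane and made up the largest summed level, 961 and 927 FPKM over 13 members. Of 8 tested, 5 were higher and 3 lower, with 0 Cuffdiff calls and 0 with p under 0.05 before adjustment. Beside 0.662% and 5.41% of all tested rows, zeros among 8 genes say little. The tests of Rab11a, Rab11b, Rab4b and Rab15 failed. Rab11b, of the slow recycling endosome, was the second most abundant member at 265 and 268 FPKM, and Rab11a was at 167 and 154 FPKM. Rab25, their epithelial relative, was at 0.348 and 0.0475 FPKM with too few reads to test. Rab4b, of the fast recycling route, was at 72.5 and 71.7 FPKM. Rab4a was at 8.22 and 8.38 FPKM, but its listed position spans 4435 kb and is shared with 74 other rows, so its quantification is uncertain. Rab14, between Golgi and endosomes, was the most abundant tested member at 167 and 159 FPKM, with an interval from -0.21 to 0.37.

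Among exocytic members of that role, Rab10 was at 114 and 112 FPKM, with an interval from -0.38 to 0.42. Rab8a, which carries cargo to the surface and cilium, was at 100.3 and 89.1 FPKM, and Rab8b at 49.6 and 47.2 FPKM. Rab35, of a fast recycling step, was at 14.0 and 14.9 FPKM. Epithelial members were low: Rab17 was at 2.41 and 1.98 FPKM and Rab13 at 0.479 and 0.620 FPKM. Rab15 was at 0.0474 and 0.140 FPKM.

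Late endosome and lysosome Rabs, which take cargo to degradation, summed to 387 and 402 FPKM over 8 members. Of 6 tested, 3 were higher and 3 lower, with 0 Cuffdiff calls and 0 with p under 0.05 before adjustment. Beside 0.662% and 5.41% of all tested rows, zeros among 6 genes say little. Rab7, the central GTPase of this step, had the highest mean of the groups in the family, at 264 and 283 FPKM, with a failed test. Rab9, which returns receptors to the Golgi, was at 63.5 and 60.4 FPKM, and its relative Rab9b was near 0 at 0.0253 and 0.00895 FPKM. Rab7l1 (now Rab29), a partner of the kinase Lrrk2, was at 16.2 and 14.0 FPKM. With a log2 ratio of 0.21, an implied standard error of 0.11 and a p of 0.0587 in the authors' deposited table, it had the smallest p of the tested members after Rab27b and Rab3a, and its q was 0.985. Rab34, of lysosome position and ciliogenesis, was at 20.3 and 20.9 FPKM. Rab36, its relative, was at 0.695 and 1.34 FPKM, a log2 ratio of -0.95 with an interval from -2.28 to 0.38. Rab24, linked to autophagy, was at 8.29 and 7.76 FPKM. Rab12, of transferrin receptor turnover, was at 14.2 and 14.7 FPKM.

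The remaining 4 members were Rab23, Rab28, Rab40b and Rab40c. Rab23, a brake on Hedgehog signalling, was at 10.08 and 10.02 FPKM. Rab28, of cilia, was at 12.7 and 12.3 FPKM. Rab40c and Rab40b, which carry a SOCS box and join ubiquitin ligases, were at 18.4 and 20.8 FPKM and at 1.02 and 0.633 FPKM. The test of Rab40c failed, and by Cuffdiff none of the other 3 was called or reached p under 0.05 before adjustment. Over all tested rows 0.662% and 5.41% did so, and so few genes say little.

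Positions showed no shared locus among the members with small p. The 57 members lie on 18 chromosomes, and Rab27b and Rab3a lie on chromosomes other than that of Tgif1, chromosome 17. The members nearest to Tgif1 were Rab12, 4324 kb away, and Rab31, 5071 kb away, with log2 ratios of -0.05 and 0.11 and intervals that include 0. Of the members, 11 share their listed position with another gene, among them Rab7, Rab37, Rab2b and Rab6. Paralogs of like sequence can also share reads, so levels within a pair such as Rab1 and Rab1b or Rab11a and Rab11b are uncertain.

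The genes that act on Rabs also held a single call. Of 126 listed regulators and effectors 125 were in the table and 81 were tested, 34 of them higher and 47 lower, with a median log2 ratio of -0.02. The tests of 38 failed. Called at a q at or under 0.05 was 1, Rab3il1, beside 0.662% of all tested rows. Rab3il1, an exchange factor that acts on Rab3a and Rab8 proteins, was at 4.70 and 3.31 FPKM, a fold of 1.42. For its log2 ratio of 0.51 the implied standard error was 0.12, and the authors' deposited table gives a Cuffdiff p of 2.39e-05 and a q of 0.00692. As with Rab27b, its error was far under the median of 0.33 at its level, and the adjusted p was 1.00 with errors held at that median or above.

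The machinery common to all Rabs held no call. Of 5 tested prenylation and extraction genes 3 were higher and 2 lower, with 0 Cuffdiff calls and 0 with p under 0.05 before adjustment. Over all tested rows those shares were 0.662% and 5.41%, so zeros among 5 genes say little. The dissociation inhibitor Gdi2 was at 282 and 286 FPKM. The escort genes Chm and Chml were at 55.2 and 57.6 FPKM and at 7.09 and 6.41 FPKM, and Chml had the smallest p of the list, 0.662. Among 23 tested GEFs 9 were higher and 14 lower. Rin3, which activates Rab5 proteins, was their most abundant member at 243 and 238 FPKM. Madd, an exchange factor for Rab3 and Rab27 proteins, was at 56.1 and 58.0 FPKM. Hps1 and Hps4, which together activate Rab32 and Rab38, were at 11.1 and 11.2 FPKM and, with a failed test, at 5.77 and 7.01 FPKM.

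Of 22 tested GAPs 9 were higher and 13 lower, with none called by Cuffdiff and none at an unadjusted p under 0.05. Over all tested rows 0.662% were called and 5.41% had such a p. The smallest p, 0.0507 in the authors' deposited table, was that of Sgsm1 at 2.15 and 3.83 FPKM. The catalytic subunit Rab3gap1 was at 23.5 and 26.4 FPKM and Rab3gap2 at 15.6 and 14.1 FPKM. Among 31 tested effectors 13 were higher and 18 lower, with none called by Cuffdiff and none at an unadjusted p under 0.05. Sytl2, which binds Rab27 proteins, had the smallest p of these, 0.0502, at 0.196 and 0.419 FPKM. Unc13d, the Munc13-4 protein that primes granules for Rab27, was at 56.6 and 53.9 FPKM with a failed test. The other Rab27-binding genes were low: Sytl1 was at 3.49 and 4.73 FPKM, Sytl4 at 5.14 and 5.43 FPKM, Exph5 at 1.71 and 1.94 FPKM and Myrip at 0.210 and 0.745 FPKM. Mlph was at 0.361 and 0.0965 FPKM and Rims1 at 0.0836 FPKM in wild type and listed at 0 in the other group. Both had too few reads to test, although the table prints a p of 0.0170 for Mlph and 0.0495 for Rims1. No tested effector of Rab27 proteins passed the threshold that Rab27b passed, but only 0.662% of all tested rows did. The tests of Unc13d and Sytl4 failed and Mlph had too few reads, so these effectors could not be called. Whether the changes of Rab27b and its effectors differ was not tested.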

How the data were processed

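RNA was sequenced in 6 LSK samples, 3 per group, with about 200 ng of RNA per the labels' protocols. The submitters' processing notes name TopHat and Cuffdiff without versions and the human build hg19, while the identifiers are mouse ones. Per the file headers, the authors deposited 1 FPKM value per group. They also deposited, per the file headers, a p-value, a q-value and a test statistic (a score) for each gene, and a WT over KO fold change, a column not used here. Log2 ratios were computed here from the FPKM pairs, and the implied standard error is the log2 ratio divided by the statistic. A normal p of the deposited statistic matched the deposited p within 0.001 for all 10683 tested rows with a finite error. The log2 ratio cancels in that p, so the match is no check on the size of the implied standard error. The Benjamini-Hochberg adjustment matched the deposited q for all 10730. A call is a q at or under 0.05 with the status tested.

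Every Rab row was named by role. Full statistics were kept for rows called or with p under 0.05 and for lineage-linked members. The members, lists and alternatives were chosen with earlier results of these data known. All 57 identifiers were found in the gene name table, 54 with the same symbol. Starts count from 1. The error floor raised each error to the median of its bin, 1 of 20 by mean FPKM. Alternatives were other q thresholds, minimum FPKM values, pseudocounts, centring, 1 row per symbol, failed rows included and the error floor. Calculations were tested on simulated data and used Python 3.11.15, pandas 2.3.3, numpy 2.4.6, scipy 1.17.1 and matplotlib 3.10.9.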

Additional observations from a re-analysis of the deposited data

How the results depend on the processing

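The table has no value per sample, so no replicate could be left out, and no fold change has a spread measured between samples. No paired analysis was possible because the labels number the samples 1 to 3 in a group and 4 to 6 in the other, and the deposited values are group values. Rab27b was called at q 0.05, after a filter of 1 FPKM and with 1 row per symbol. At a q of 0.01 there were 0 called Rab genes, beside 2 at an unadjusted Cuffdiff p under 0.05. At a q of 0.1 there were 2, Rab27b and Rab3a. The shares of all tested rows at these other q thresholds were not counted, so these counts say little about the family. A filter of at least 5 FPKM in a group leaves out Rab27b, Rab3a and Rab3il1. These were the only tested genes of these lists with an unadjusted Cuffdiff p under 0.05. Its counts were therefore fixed in advance: 0 called Rab genes, 0 called regulators or effectors, and 0 of either at an unadjusted p under 0.05. With the error floor there were also 0 of either, with 1 Rab gene, Rab3a, and 0 regulators or effectors at an unadjusted p under 0.05. The adjusted p of Rab27b ranged from 0.0129 to 1.00, that of Rab3a from 0.0529 to 0.546 and that of Rab3il1 from 0.00625 to 1.00. The median log2 ratio of the tested Rab genes was 0.04 and ran from 0.02 to 0.07 over 6 alternatives. Centring moves every ratio by 0.03. With a pseudocount of 1 the log2 ratio was 0.40 for Rab27b and 0.83 for Rab3a. Depth is unknown, and of 8 tested Rab genes with a mean under 1 FPKM, 1 had an interval inside a 2-fold change.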

Other observations

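Among the 46 tested Rab genes the implied error was under the median of genes at like expression in 17. Rab27b had the lowest error relative to that median, at 39.0% of it, and the error of Rab3a was at 84.3%. Values per sample were not analysed here.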
